A study of Mus musculus with 36 samples.

Results

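Antigen presentation was followed through the genes of the major histocompatibility complex (MHC) and its peptide-loading machinery in the epididymal fat pad, a white adipose depot, of 36 adult male C57BL/6J mice. The genes were chosen by name: every gene of the array whose name starts with H2-, the mouse MHC, and B2m, Cd74, Ciita, Tap1, Tap2, Tapbp, Psmb8, Psmb9, Psmb10, Nlrc5 and Erap1. This gave 45 genes of 27745 on the array, 31 of them on the class I side, 12 on the class II side and 2, H2-Ke2 and H2-Ke6, that lie in the region and encode no MHC molecule. No probe carried the name Nlrc5 or Erap1. Erap1, the enzyme that trims peptides for class I, stands in the files under its older name Arts1 and is given below apart from the 45. Each gene was read by a single probe, that with the highest mean intensity.

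All mice first had free access for 3 weeks to a purified high-fat diet (30 energy percent fat). A group of 12 mice, t0, was killed then. HF-AL (12 mice) kept free access to that diet for 12 more weeks, and HF-DR (12 mice) received it in restricted amounts over those 12 weeks (70 energy percent, per the labels), with vitamins and minerals added in ratio so that their intake matched that of the unrestricted mice. No group was fed a low-fat diet. RNA of each mouse, labelled with the red dye Cy5, was hybridised to 1 Agilent array together with the pooled RNA of the study in the green dye Cy3, so a value is the log2 ratio of 1 mouse to that pool and shows nothing of the level of a gene against that of another.

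Class I molecules, a heavy chain such as H2-K or H2-D bound to beta-2-microglobulin, show peptides from the cytosol on nearly every nucleated cell. The peptides are cut by the proteasome, carried into the endoplasmic reticulum by the Tap1-Tap2 transporter and loaded with the help of tapasin. Class II molecules, an alpha and a beta chain, show peptides from endosomes to CD4 T cells; they are made mainly by macrophages, dendritic cells and B cells, and in mice also by adipocytes of obese fat. Their genes are switched on together by the coactivator Ciita.

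On the 36 arrays 45.2% to 86.6% of the probes were well above background in Cy5. To be tested, a gene had to stand well above background in Cy5 on 9 or more arrays of some group, and 31 of the 45 genes did: 20 on the class I side, 9 on the class II side and both H2-Ke genes. A gene is called changed where limma gave it an adjusted p under 0.05, with adjustment over all 16559 genes tested. Transcripts of the male tract marked 7 arrays, chosen in earlier work on these files, and values without them are given where they differ. Averaged over 7 seminal vesicle and epididymis genes, HF-DR 8 and 9 read 5.63 and 5.17, HF-DR 7 read -0.64 and t0 6 read -2.71, with no other array above -3.70. The HF-AL arrays among the 7 (5, 7 and 9) were not high for this list, at -5.06, -4.92 and -5.44. They stood apart in Tekt1, which is used in cilia and sperm tails, at 1.60, 2.48 and 2.65 where the rest of HF-AL reached at most -1.34. Tekt1 was also high in HF-DR, at 0.66 to 2.10 on all arrays but HF-DR 8 (-0.07), and read 0.34 on t0 2, so leaving out the 7 arrays takes high Tekt1 out of HF-AL but not out of HF-DR. The arrays lay on 21 slides, of which 3 held both HF-DR and HF-AL. HF-AL 1 to 3 and HF-DR 7 to 12 each lay on a slide with no other array of the study. A fit with slide as a block therefore takes nothing from these arrays, and its calls rest on fewer mice. All 10 adipocyte markers were well above background on every array. In such bulk tissue fewer cells of a type and less RNA per cell cannot be told apart.

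Class II genes were lower in the restricted mice. Between HF-DR and HF-AL 8 of the 9 tested class II genes fell, each at least 1.5-fold, and none rose (limma, n = 12 mice per group), with a median log2 difference of -0.90. Of all 16559 genes 64.8% changed in this comparison, 36.0% lower and 28.8% higher, with a median of -0.04. The values of HF-DR lay wholly below those of HF-AL for 6 of the 9 genes, namely Cd74, Ciita, H2-Ab1, H2-DMb1, H2-DMb2 and H2-Eb1, where 8.19% of all genes did so and 6.27% lay wholly above. With slide as a block the same 8 genes were called, with adjusted p up to 0.00411, and without the 7 arrays with tract transcripts likewise.

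The classical alpha chain gene H2-Aa (chr17:33892022-33892081, build mm8) read, as lowest, median and highest log2 ratio, -1.24, -0.88 and -0.30 in HF-DR, -0.45, -0.18 and 0.26 in HF-AL and -0.49, -0.24 and 0.45 in t0. All 12 HF-DR mice lay below the HF-AL median, and 1 of them lay above the lowest HF-AL mouse. The difference between HF-DR and HF-AL was -0.70 ± 0.11 SE (adjusted p = 1.05e-06). H2-Ab1 (chr17:33877309-33877368), which encodes the partner beta chain of the I-A molecule, read -1.47, -0.95 and -0.54 in HF-DR, -0.33, 0.09 and 0.57 in HF-AL and -0.21, 0.02 and 0.84 in t0. Every HF-DR mouse lay below every HF-AL mouse measured (11, since 1 spot was left out) and every t0 mouse, at a difference from HF-AL of -1.04 ± 0.12 SE (adjusted p = 3.49e-09). The other class II molecule, I-E, needs an alpha chain from H2-Ea, which C57BL/6 mice lack because its promoter is deleted in their haplotype. H2-Ea was well above background on 1 of the 12 t0 arrays and on none of HF-AL and HF-DR, and was not tested. The beta chain gene H2-Eb1 (chr17:33922800-33923261) read -1.71, -1.14 and -0.68 in HF-DR, -0.54, -0.26 and 0.15 in HF-AL and -0.70, -0.24 and 0.55 in t0, again with no overlap between HF-DR and HF-AL (-0.90 ± 0.11 SE, adjusted p = 1.2e-08). The accession of that probe is an I-A beta mRNA of another strain with no RefSeq match, so its gene name is uncertain.

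Ciita (chr16:10439788-10439847), the coactivator itself, read -1.59, -0.99 and -0.46 in HF-DR, -0.42, 0.05 and 0.53 in HF-AL and -0.31, 0.06 and 0.72 in t0. All HF-DR mice were below all HF-AL and t0 mice, 2.03-fold lower than HF-AL on average (-1.02 ± 0.12 SE, adjusted p = 3.11e-09). Cd74 (chr18:60937790-60937847), the invariant chain that fills the class II groove until it reaches the endosome, read -1.67, -1.25 and -0.72 in HF-DR, -0.46, -0.27 and 0.16 in HF-AL and -0.54, -0.31 and 0.28 in t0. It had the smallest adjusted p of the 31 tested genes, 3.2e-11, at a difference of -1.02 ± 0.10 SE, with no overlap between HF-DR and HF-AL. H2-DM, the molecule that takes the remnant of the invariant chain out of the groove, is encoded by H2-DMa and H2-DMb1. H2-DMa (chr17:33747809-33748372) read -1.61, -0.66 and -0.30 in HF-DR, -0.31, 0.08 and 0.48 in HF-AL and -0.28, -0.02 and 0.58 in t0, and H2-DMb1 (chr17:33767055-33767114) read -1.58, -0.87 and -0.52 in HF-DR, -0.29, 0.07 and 1.00 in HF-AL and -0.29, 0.07 and 0.84 in t0. H2-DMb1 showed the deepest fall of the 31 genes (-1.09 ± 0.13 SE, 2.13-fold, adjusted p = 3.52e-09), and H2-DMa fell by 0.88 (adjusted p = 3.41e-08), with ranges that overlapped by a single narrow margin.

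H2-DMb2, a copy of H2-DMb1 whose probe matches both genes by its accessions, fell by a smaller amount (-0.65 ± 0.10 SE, adjusted p = 8.32e-07), and the pair cannot be separated by it. H2-O, which restrains H2-DM in B cells and thymus, is encoded by H2-Oa and H2-Ob. H2-Oa (chr17:33705542-33705601) read -0.31, -0.04 and 0.23 in HF-DR, -0.51, -0.08 and 0.39 in HF-AL and -0.28, -0.02 and 0.21 in t0, and the 3 ranges overlapped widely. It was the exception among the tested class II genes, at 0.02 ± 0.08 SE (adjusted p = 0.834). H2-Ob was well above background on 3 t0 arrays, 1 HF-AL array and no HF-DR array, and H2-Eb2 on 4, 2 and 0. Neither was tested.

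**Figure D1:**
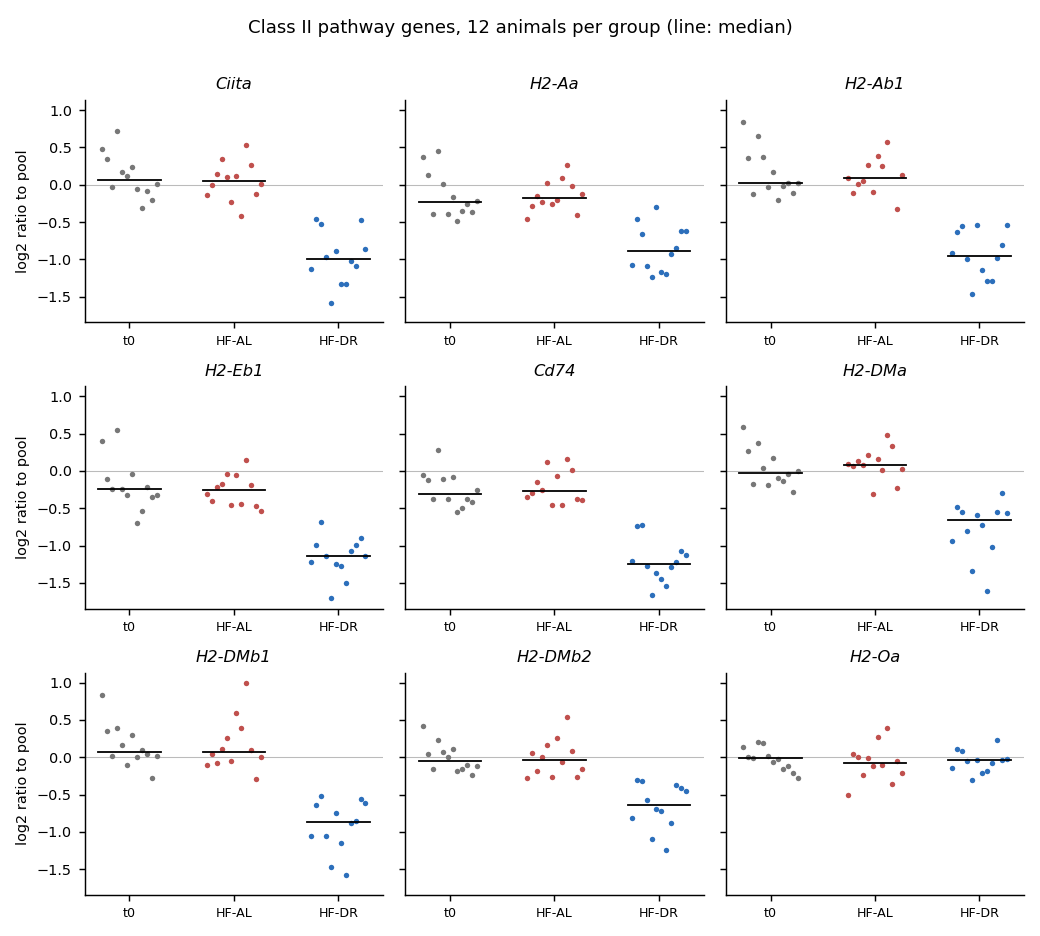
Log2 ratio to the pool (vertical axis) of the 9 tested class II pathway genes in t0, HF-AL and HF-DR, 1 point per mouse and a line at the median of the 12. In 8 of the 9 panels the HF-DR points sit below nearly all others, and in the panel of H2-Oa the 3 groups cover one another.

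The proximal promoters of the class II chains carry the shared X box and Y box, bound by RFX and NF-Y, onto which Ciita docks. They are shown because these genes fell together. RefSeq windows from 250 bases before to 50 after the gene start (build GRCm38.p6) were found for 34 of the 45 genes, among them 6 of the 9 tested class II genes (not Cd74, Ciita or H2-Ab1). The Y box letters CTGATTGG, an inverted CCAAT, were searched on both strands, and 3 of the 6 hold them, H2-Aa, H2-Eb1 and H2-Oa, as do 4.07% of all 32544 promoter windows. The letters of a strict X box, also on both strands, were met only in H2-DMb1 of the 6, and in 0.0615% of all windows. No 2 of the motifs searched overlapped. H2-Oa, the gene that did not pass, holds the same Y box letters as H2-Aa and H2-Eb1. The windows of H2-Aa (chr17:34287774-34288073, minus strand), H2-Eb1 (chr17:34305617-34305916, plus strand) and H2-DMb1 (chr17:34152941-34153240, plus strand) read 5′ to 3′ as follows, with the Y box or X box letters in capitals.
H2-Aa: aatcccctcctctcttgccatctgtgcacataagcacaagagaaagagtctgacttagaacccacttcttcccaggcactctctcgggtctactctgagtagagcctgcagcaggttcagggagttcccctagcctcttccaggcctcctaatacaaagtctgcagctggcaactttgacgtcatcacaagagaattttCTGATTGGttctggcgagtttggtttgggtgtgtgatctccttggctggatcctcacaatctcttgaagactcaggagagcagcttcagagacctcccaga
H2-Eb1: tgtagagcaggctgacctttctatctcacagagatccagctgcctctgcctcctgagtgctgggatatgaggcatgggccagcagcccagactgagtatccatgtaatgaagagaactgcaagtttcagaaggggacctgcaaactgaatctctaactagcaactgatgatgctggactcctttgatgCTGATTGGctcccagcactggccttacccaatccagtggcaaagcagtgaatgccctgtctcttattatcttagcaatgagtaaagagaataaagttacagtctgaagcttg
H2-DMb1: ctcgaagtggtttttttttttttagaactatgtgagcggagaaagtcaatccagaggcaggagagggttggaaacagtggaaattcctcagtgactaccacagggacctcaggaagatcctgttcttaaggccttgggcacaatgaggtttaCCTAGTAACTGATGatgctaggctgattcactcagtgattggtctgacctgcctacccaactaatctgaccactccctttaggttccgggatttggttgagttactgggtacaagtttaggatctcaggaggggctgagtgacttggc
In H2-Aa and H2-Eb1 the Y box begins 51 and 62 bases before the start, and in H2-DMb1 the X box begins 98 bases before it.

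Genes that act beside the class II molecules were read from lists by role. Counts of lists, here and below, stand beside the 64.8% of all genes that changed between HF-DR and HF-AL (36.0% lower and 28.8% higher). Of 7 other genes of class II processing 4 fell and 1 rose (median -0.33). The proteases Ctss (-1.03 ± 0.14 SE, adjusted p = 4.69e-08), which degrades the invariant chain, and Lgmn (-0.88 ± 0.10 SE), which cuts antigens, fell, as did Marchf1 (-0.60), the ubiquitin ligase that turns class II over, and Ctsb (-0.33). Ctsb read -0.19 without the tract arrays and did not pass with slide as a block (-0.18, adjusted p = 0.0812), where 3 of the 7 fell. The lysosomal protease Ctsd rose (0.86 ± 0.09 SE, adjusted p = 6.28e-11). Of 7 factors that bind class II promoters 2 rose and 2 fell (median -0.11), a smaller share called than that of all genes. The NF-Y subunit Nfyc rose by 0.88 (adjusted p = 5.46e-14), Creb1 (-0.27) and the RFX subunit Rfxank (-0.21) fell, and Rfx5 did not pass (-0.11 ± 0.05 SE, adjusted p = 0.0502). Without the tract arrays Rfx5 was lower (-0.16, adjusted p = 0.012) and 3 of the 7 fell. Of the 5 tested genes of co-stimulation, signals between presenting cell and T cell beside the MHC, 4 fell and none rose (median -0.21). Icosl fell by 0.67, Cd86 by 0.33, Cd80 by 0.18 and Cd40 by 0.15, and Cd274 did not pass. Cd80 was well above background on 6 HF-AL arrays and 1 HF-DR array, so its value rests on dim spots. Without the arrays with tract transcripts, and with slide as a block, 3 of the 5 passed.

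Macrophage markers fell with the class II genes. Of 15 macrophage markers 13 fell and none rose (median -0.62), among them Lyz2 (-1.37 ± 0.13 SE), Csf1r (-0.95 ± 0.10 SE) and Clec10a (-1.19 ± 0.13 SE). The mean log2 ratio of the list per mouse was, as lowest, median and highest, -1.27, -0.54 and -0.30 in HF-DR, -0.22, 0.00 and 0.27 in HF-AL and -0.15, 0.04 and 0.48 in t0, so HF-DR lay wholly below the other groups. Of 7 tested dendritic cell markers 4 fell and 1 rose, with Batf3 at -1.08 ± 0.10 SE and Itgae at 0.43 ± 0.08 SE, and Flt3 and Clec9a did not pass the filter. With slide as a block 3 fell, as Zbtb46 did not pass (-0.18, adjusted p = 0.249). The dendritic list had means of -0.26, -0.15 and -0.11 in HF-DR, -0.12, -0.03 and 0.11 in HF-AL and -0.10, 0.04 and 0.12 in t0. B cell markers went the other way: the 3 tested rose, among them Ms4a1 (0.92 ± 0.24 SE) and Cd79b (0.43 ± 0.18 SE), and the other 5 of the 8 did not pass the filter. The list mean of those tested was -0.79, 0.53 and 1.14 in HF-DR, -0.49, -0.15 and 0.29 in HF-AL and -0.61, -0.34 and 0.27 in t0, with overlap. Of 10 adipocyte markers 7 fell and none rose (median -0.57), against 4 lower and 3 higher with slide as a block and 6 lower and 2 higher without the tract arrays. Of 10 tested T and NK cell markers 2 rose and none fell, and none passed without the arrays with tract transcripts or with slide as a block. The fall was not confined to markers of such cells. Of 8 fibroblast and preadipocyte markers 7 fell and none rose (median -0.93), among them the collagen genes Col3a1 (-2.10 ± 0.11 SE) and Col1a1 (-2.05 ± 0.11 SE), with the same counts under slide as a block and without the tract arrays. Their list mean was -1.59, -0.95 and -0.72 in HF-DR, 0.06, 0.15 and 0.30 in HF-AL and -0.05, 0.21 and 0.50 in t0. Of 5 mesothelium markers 3 fell and none rose (Msln -1.32 ± 0.17 SE), against 2 lower with slide as a block and 4 without the tract arrays. The part of any of these cell types in the fall of the class II genes was not tested.

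Class I genes fell less and less evenly. Between HF-DR and HF-AL 12 of the 20 tested class I genes fell and none rose by the chosen probes. The median log2 difference of the 20 was -0.27, and 2 of the 12, H2-M3 and H2-T10, fell at least 1.5-fold. Of all 16559 genes 64.8% changed, 36.0% lower and 28.8% higher. The share of class I genes called was no larger than that of all genes, but all 12 were falls. For H2-Q10, 2 probes other than the chosen one rose 8.31-fold and 8.2-fold, as given below. The class I count depended on the processing: 4 genes were called with slide as a block (H2-M3, H2-T10, Tapbp and B2m) and 9 without the 7 arrays with tract transcripts, 7 of them lower and 2 higher. Without only t0 6 and HF-DR 7, 8 and 9, 7 fell and 1 rose. The classical heavy chain gene H2-K1 (chr17:33606564-33606623) read -1.19, -0.40 and -0.10 in HF-DR, -0.29, 0.05 and 0.43 in HF-AL and -0.20, 0.03 and 1.20 in t0. HF-DR lay mostly below the other groups, with overlap at its upper end, at -0.52 ± 0.13 SE from HF-AL (adjusted p = 0.000535, against 0.0555 for a difference of -0.47 when slide was a block). H2-D1 (chr17:34874240-34874299) read -1.13, -0.67 and -0.17 in HF-DR, -0.63, -0.34 and 0.13 in HF-AL and -0.39, -0.17 and 0.84 in t0, with wide overlap. Its difference of -0.33 ± 0.11 SE (adjusted p = 0.0107) did not pass with slide as a block (-0.35, adjusted p = 0.106) or without the tract arrays (-0.19, adjusted p = 0.186). The probe of H2-D1 matches H2-Q2 as well, and class I heavy chains are near-identical over long stretches, so their values are uncertain as to the gene.

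B2m (chr2:121844106-121844165), the light chain shared by all class I molecules, read -0.79, -0.61 and 2.21 in HF-DR, -0.63, -0.17 and 0.16 in HF-AL and -0.30, -0.08 and 0.85 in t0. Of the 12 HF-DR mice 10 read at most -0.27, and HF-DR 8 and 9, the arrays highest in seminal vesicle genes, read 2.21 and 1.59. Over all arrays B2m did not pass by its chosen probe (-0.01 ± 0.24 SE, adjusted p = 0.988). Without the tract arrays it was lower in HF-DR (-0.43, adjusted p = 0.00209), as it was with slide as a block (-0.45, adjusted p = 0.0303). The fit with slide as a block also takes nothing from HF-DR 8 and 9, each alone on its slide, so it is no separate check on these 2 arrays. The part of the tract transcripts in the high B2m of these arrays was not tested.

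Of the loading machinery, Tapbp (chr17:33539531-33539590), which encodes tapasin, read -1.13, -0.45 and -0.34 in HF-DR, -0.21, -0.03 and 0.16 in HF-AL and -0.33, 0.00 and 0.24 in t0. All HF-DR mice lay below all HF-AL and t0 mice (-0.50 ± 0.07 SE, adjusted p = 3.8e-07), the one class I gene without overlap. The transporter gene Tap1 (chr17:33804121-33804180) read -0.65, -0.25 and 0.18 in HF-DR, -0.43, -0.22 and 0.68 in HF-AL and -0.55, -0.19 and 0.56 in t0, with ranges that overlapped in part and a difference of -0.08 ± 0.12 SE (adjusted p = 0.566). Its partner Tap2 (chr17:33825052-33825639) read -0.58, 0.18 and 0.57 in HF-DR, -0.31, -0.16 and 0.36 in HF-AL and -0.35, -0.14 and 0.09 in t0. The lowest Tap2 values of HF-DR were those of HF-DR 8 and 9. Tap2 did not pass over all arrays (0.17 ± 0.09 SE, adjusted p = 0.0987) and was higher without the tract arrays (0.34, adjusted p = 0.000119). Erap1, under its older name, rose (0.31 ± 0.08 SE, adjusted p = 0.000758).

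The 3 immunoproteasome subunits, which interferon gamma puts in place of the constitutive catalytic subunits, differed from HF-AL by at most 0.26. Psmb8 (chr17:33811095-33811419) read -1.02, -0.17 and 0.27 in HF-DR, -0.37, 0.00 and 0.67 in HF-AL and -0.47, -0.17 and 0.63 in t0 and Psmb9 (chr17:33792517-33792576) -1.18, -0.39 and 0.27 in HF-DR, -0.71, -0.17 and 0.44 in HF-AL and -0.62, -0.36 and 0.62 in t0. The ranges overlapped in part, with 4 HF-DR mice for Psmb8 and 1 for Psmb9 below every HF-AL mouse, and neither gene passed (-0.26 ± 0.13 SE, adjusted p = 0.0761, and -0.14 ± 0.15 SE, adjusted p = 0.434). Psmb10 (mm8 chromosome 8, 108824906 to 108824965) read -0.58, -0.18 and 0.23 in HF-DR, -0.13, 0.04 and 0.33 in HF-AL and -0.19, -0.01 and 0.34 in t0 and fell by 0.26 (adjusted p = 0.0035), but not with slide as a block (adjusted p = 0.0601). The constitutive proteasome was higher in HF-DR. Of 14 genes of its 20S core 13 rose and none fell (median 0.47), led by Psmb5 (0.74 ± 0.04 SE, adjusted p = 3.68e-17), the subunit that Psmb8 replaces, Psma6 (0.78 ± 0.06 SE) and Psma4 (0.77 ± 0.07 SE). The same count was found without the tract arrays, and 12 rose with slide as a block.

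Among the other class I heavy chains, H2-M3 (chr17:36882458-36882517), which binds formylated peptides of bacteria and mitochondria, read -1.13, -0.39 and 0.00 in HF-DR, -0.01, 0.19 and 0.62 in HF-AL and -0.07, 0.15 and 0.79 in t0 and fell by 0.62 (± 0.10 SE, adjusted p = 1.79e-06). H2-T10 (chr17:35725186-35725245), a ligand of gamma delta T cells like its near copy H2-T22, fell as much (-0.62 ± 0.11 SE, adjusted p = 1.25e-05). Its probe matches H2-T22 too, whose own used probe read -0.35 and whose other probe did not pass (-0.11, adjusted p = 0.229). The remaining genes that passed fell by small amounts: H2-T23, the Qa-1 ligand of NK receptors, by 0.31, the Qa-2 genes H2-Q7 and H2-Q9 by 0.30 and 0.28, H2-Q2 by 0.28 and H2-Q1 by 0.26. None of these 5 passed with slide as a block or without the tract arrays. H2-Bl (0.03), H2-Q8 (0.19) and H2-Q10 (-0.20) did not pass. H2-Q8 was higher without the tract arrays (0.40, adjusted p = 0.0263). The 11 class I genes that were not tested are H2-M1, H2-M9, H2-M11, the 6 genes H2-M10.1 to H2-M10.6, H2-T3 and H2-T24. H2-T24 was well above background on 8 t0, 7 HF-AL and 4 HF-DR arrays, and the others on at most 3 arrays of any group.

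**Figure D2:**
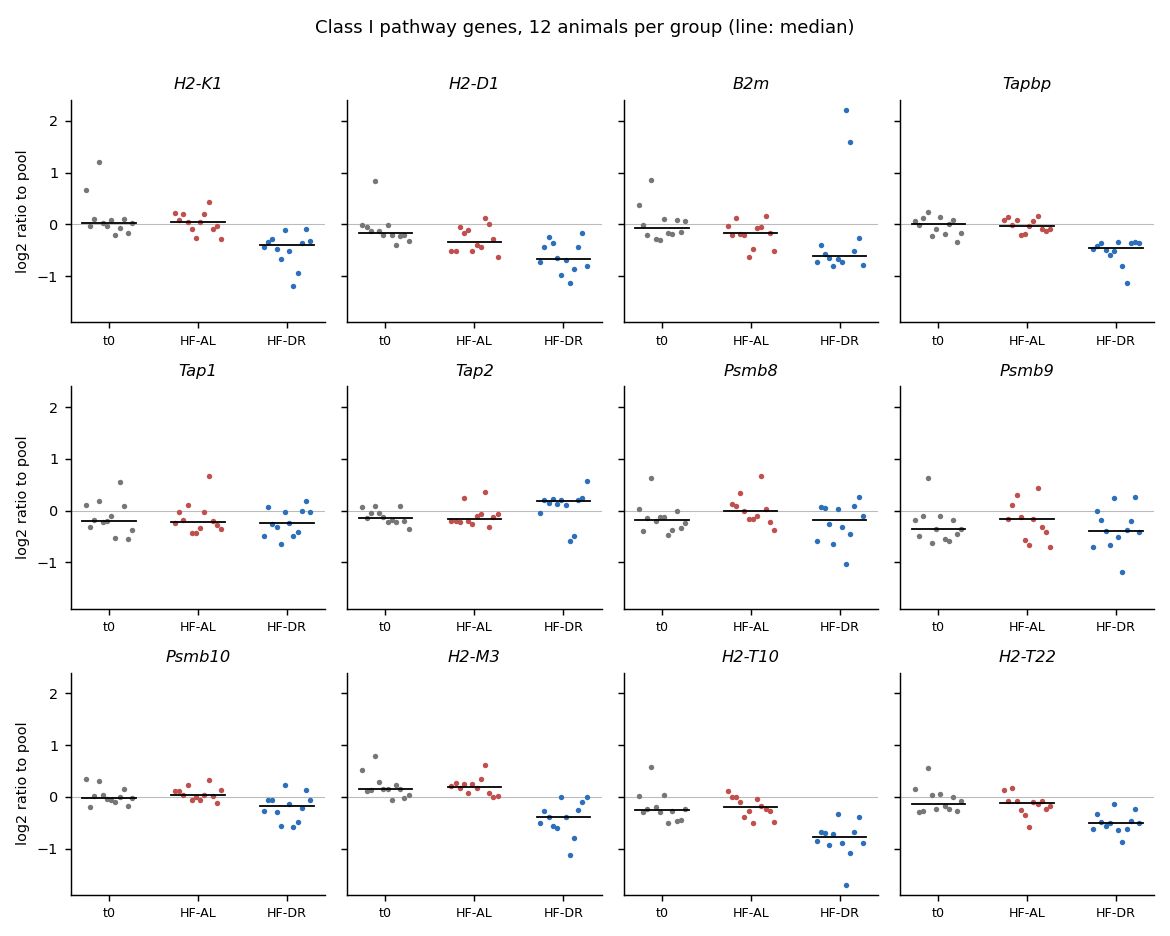
Log2 ratio to the pool of 12 class I pathway genes in t0, HF-AL and HF-DR, 1 point per mouse and a line at the median of the 12. Tapbp and H2-M3 are lower in HF-DR, Tap1 and Psmb9 overlap in part in all groups, and 2 HF-DR mice stand far above the others for B2m (2.21 and 1.59).

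Class I promoters carry other elements: enhancer A, a kappa B site, an interferon-stimulated response element and a Y box. The windows of H2-K1 (the first of 2, chr17:34000284-34000583, minus strand), H2-D1 (chr17:35262844-35263143, plus strand) and B2m (chr2:122147437-122147736, plus strand) are shown to compare them with those of class II, with the letters of these elements in capitals, in the order in which they stand.
H2-K1: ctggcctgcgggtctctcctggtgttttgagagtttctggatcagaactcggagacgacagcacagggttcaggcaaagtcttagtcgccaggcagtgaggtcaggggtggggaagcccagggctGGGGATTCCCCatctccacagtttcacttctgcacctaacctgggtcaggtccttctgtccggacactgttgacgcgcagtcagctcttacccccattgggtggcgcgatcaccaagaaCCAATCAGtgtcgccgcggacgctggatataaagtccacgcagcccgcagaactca
H2-D1: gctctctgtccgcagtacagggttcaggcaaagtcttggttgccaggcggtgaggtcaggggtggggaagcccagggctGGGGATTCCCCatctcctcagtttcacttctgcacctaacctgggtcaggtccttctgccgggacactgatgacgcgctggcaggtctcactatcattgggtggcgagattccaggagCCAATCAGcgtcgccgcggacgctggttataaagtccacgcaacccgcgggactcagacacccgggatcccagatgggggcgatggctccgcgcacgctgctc
B2m: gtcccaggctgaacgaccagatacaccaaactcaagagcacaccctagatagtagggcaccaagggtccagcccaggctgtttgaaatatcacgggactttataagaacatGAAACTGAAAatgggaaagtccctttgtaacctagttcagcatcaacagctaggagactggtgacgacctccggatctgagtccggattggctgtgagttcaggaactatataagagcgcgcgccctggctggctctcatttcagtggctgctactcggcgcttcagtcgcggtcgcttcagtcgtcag
H2-K1 and H2-D1 hold the kappa B letters of enhancer A and, closer to the start, the Y box letters on the other strand (CCAATCAG), and B2m holds the response element letters. All were searched on both strands, each in a single strict form, and capitals mark only letters that met it. A window without capitals for an element, such as the response element in H2-K1 and H2-D1, is not shown to lack that element. Of the 14 tested class I genes with a window, 6 hold the Y box letters, 3 the response element letters (3.45% of all windows) and 2 those of enhancer A (0.0307% of all windows). H2-K1 and H2-D1, whose windows both hold the letters searched for 2 of the elements, differed between HF-DR and HF-AL by -0.52 and -0.33.

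Probes of the same class I gene did not all read alike, and for H2-Q10, the secreted class I molecule known from liver, the choice of probe set the result. The 4 probes named H2-Q10 are numbered here along chromosome 17 (mm8). The probe chosen by intensity, the second (chr17:35081318-35081377), matches H2-D1, H2-Q1 and H2-Q6 too by its accessions, and read -0.85, -0.31 and -0.06 in HF-DR against -0.46, -0.12 and 0.15 in HF-AL (-0.20 ± 0.11 SE, adjusted p = 0.0985 among all 24706 probes tested). Probes 3 and 4 match H2-Q10 only. Probe 3 (chr17:35081576-35081635) read 0.52, 1.86 and 2.35 in HF-DR, -2.16, -1.31 and -0.79 in HF-AL and -1.91, -1.10 and -0.62 in t0. Probe 4 (chr17:35082473-35082532) read 0.64, 1.80 and 2.15 in HF-DR, -2.35, -1.40 and -0.83 in HF-AL and -1.95, -1.07 and -0.54 in t0. With both probes every HF-DR mouse lay above every mouse of the other groups, 8.31-fold (3.05 ± 0.18 SE, adjusted p = 6.38e-17) and 8.2-fold (3.04 ± 0.19 SE, adjusted p = 2.24e-16) above HF-AL. The first probe (chr17:35079015-35079074), which also matches H2-Q10 only, read 0.00 ± 0.12 SE (adjusted p = 0.996). Which transcripts each probe binds was not tested. With slide as a block probes 3 and 4 read 3.31 and 3.17, and without the tract arrays 3.27 and 3.23.

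Probes of other genes also differed. Of 4 probes of H2-K1, numbered in the same way, the first 2, which overlap (chr17:33606564-33606623 and chr17:33606572-33606626) fell (-0.52 ± 0.13 SE and -0.36 ± 0.12 SE), and the last 2, about 3 kb away (chr17:33609797-33609856 and chr17:33609987-33610233), did not pass (-0.06 ± 0.11 SE and -0.05 ± 0.11 SE). The second did not pass without the tract arrays (-0.24, adjusted p = 0.0987), and none of the 4 passed with slide as a block (-0.47, -0.35, -0.23 and -0.10), so the contrast between them rests on the fit used. The used probe of Tapbp fell, and the other read 0.10 ± 0.08 SE (adjusted p = 0.264), and was higher without the tract arrays (0.17, adjusted p = 0.0481). The other probe of H2-M3 read -0.04 ± 0.12 SE where the used one fell by 0.62. Likewise the other probe of H2-T22 read -0.11 ± 0.08 SE where the used one fell by 0.35. Another probe of H2-Q1 read -0.06 (adjusted p = 0.589) where the used one fell by 0.26. The 3 probes of B2m read -0.36, -0.01 and -0.18, of which only the first passed (adjusted p = 0.0478), and without the tract arrays -0.58, -0.43 and -0.60. On the class II side all 4 probes of H2-Ab1 read -1.04 to -0.75, and both of H2-Aa -0.70 and -0.68.

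**Figure D3:**
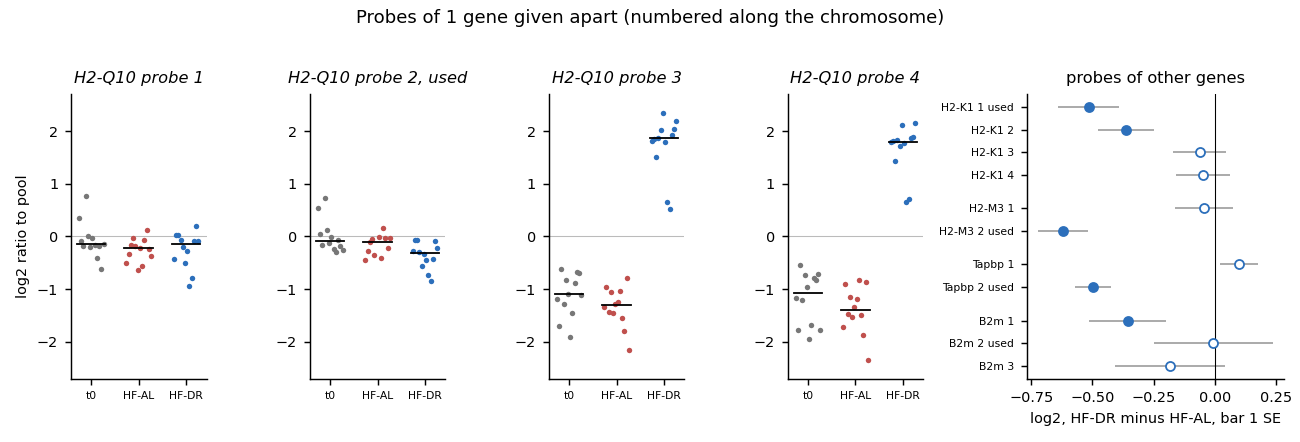
Left, log2 ratio to the pool of the 4 probes named H2-Q10, 1 point per mouse and a line at the median. Probes 3 and 4 are at 0.52 or above in every HF-DR mouse and at -0.54 or below in every other mouse, and probes 1 and 2 overlap. Right, log2 difference between HF-DR and HF-AL (bar, 1 SE) of each probe of H2-K1, H2-M3, Tapbp and B2m, filled where the adjusted p was under 0.05.

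Of 12 other genes of class I processing 2 rose and 1 fell (median 0.06), where 64.8% of all genes changed. The proteasome activator subunit Psme3 (1.13 ± 0.10 SE, adjusted p = 5.99e-12) and the tapasin relative Tapbpl (0.38 ± 0.07 SE) rose, and the aminopeptidase Lnpep fell (-1.0 ± 0.09 SE). With slide as a block 3 of the 12 fell and without the tract arrays 2. Psme1 and Psme2, the interferon-induced activator subunits, read -0.01 and -0.16 and did not pass. Of 4 tested class I-like genes Mr1, which shows vitamin B metabolites to MAIT cells, rose (0.66 ± 0.10 SE), and Cd1d1, which shows lipids to NKT cells (-0.71 ± 0.14 SE), and the iron regulator Hfe (-0.61 ± 0.11 SE) fell. Psme3, Tapbpl, Lnpep, Mr1, Cd1d1 and Hfe kept their direction and passed with slide as a block, where Cd1d1 was smaller (-0.40, adjusted p = 0.0186).

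Interferon gamma drives both class I and class II genes, through its receptor and Irf1. Of 15 genes of interferon signalling 7 fell and 1 rose (median -0.08), where 36.0% of all genes were lower and 28.8% higher (median -0.04). So this list was called no more often than genes at large. Its counts were the same with slide as a block and without the tract arrays. Both receptor chains fell, Ifngr1 (-1.08 ± 0.09 SE, adjusted p = 8.09e-13) and Ifngr2 (-0.42 ± 0.08 SE), as did Irf2 (-0.62 ± 0.10 SE), Irf1 (-0.65 ± 0.13 SE) and the inhibitor Socs1 (-0.51 ± 0.12 SE). Of 23 tested interferon-inducible genes 4 rose and 4 fell (median 0.02). Ifi27 fell most (-3.44 ± 0.16 SE), and Cxcl9 fell (-0.56 ± 0.16 SE), while Rsad2 (0.57 ± 0.15 SE) and Ifit1 (0.56 ± 0.15 SE) rose. With slide as a block 3 of the 23 fell and none rose, and without the tract arrays 2 fell and 3 rose.

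The 2 H2-Ke genes rose. H2-Ke2 (chr17:33550087-33550230), now called Pfdn6, a subunit of the chaperone prefoldin, read 0.06, 0.26 and 0.70 in HF-DR, -0.31, -0.08 and 0.10 in HF-AL and -0.31, -0.20 and -0.02 in t0, so HF-DR lay above t0 entirely and overlapped HF-AL slightly (0.39 ± 0.06 SE, adjusted p = 4.8e-07). H2-Ke6 (chr17:33637877-33637936), a steroid dehydrogenase, rose by 0.21 (adjusted p = 0.0221).

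The comparison of HF-DR with t0 sets the restricted mice against the start, and shares the HF-DR arrays with the comparison above. The HF-DR mice were also 12 weeks older, so restriction, age and time on the diet cannot be told apart in it. Of the 9 class II genes the same 8 fell (median -0.98) and none rose, and of the 20 class I genes 12 fell (median -0.38) and none rose, where 61.7% of all genes changed, 33.0% lower and 28.7% higher. The deepest falls were those of H2-Ab1 (-1.09 ± 0.12 SE, adjusted p = 7.38e-10), Ciita (-1.09 ± 0.12 SE, adjusted p = 7.66e-10) and H2-DMb1 (-1.08 ± 0.13 SE, adjusted p = 4.62e-09). Cd74 fell by 0.98 and H2-Eb1 by 0.98, and H2-Oa did not pass (-0.03 ± 0.08 SE, adjusted p = 0.763). HF-DR lay wholly below t0 for 6 class II genes and for Tapbp (-0.48 ± 0.07 SE), where 9.05% of all genes did, and above it for H2-Ke2, as did 7.52% of all genes. Among class I chains H2-K1 read -0.62 ± 0.13 SE (adjusted p = 5.12e-05) and H2-D1 -0.53 ± 0.11 SE (adjusted p = 0.000107), and both passed with slide as a block too. H2-Q9 did not pass here (-0.21 ± 0.12 SE), and H2-Q10, by its chosen probe, did (-0.38 ± 0.10 SE, adjusted p = 0.00207), while its probes 3 and 4 read 2.83 and 2.82.

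HF-AL was set against t0 for the change over 12 further weeks of free feeding, during which the mice also aged by 12 weeks, so that age and feeding cannot be told apart here. None of the 31 genes passed in limma, where 0.646% of all genes did. None had an unadjusted p under 0.05 either, where 2227 of all 16559 genes did. No gene of the 31 had groups without overlap, against 0.0242% of all genes higher and 0.0181% lower. The log2 differences ran from -0.21 (H2-Bl) to 0.17 (Psmb8). Class II genes read -0.09 (H2-Eb1) to 0.05 (H2-DMa), with standard errors of at most 0.13. H2-Aa stood at -0.01 ± 0.11 SE, Cd74 at 0.04 ± 0.10 SE and H2-K1 at -0.11 ± 0.13 SE.

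**Figure D4:**
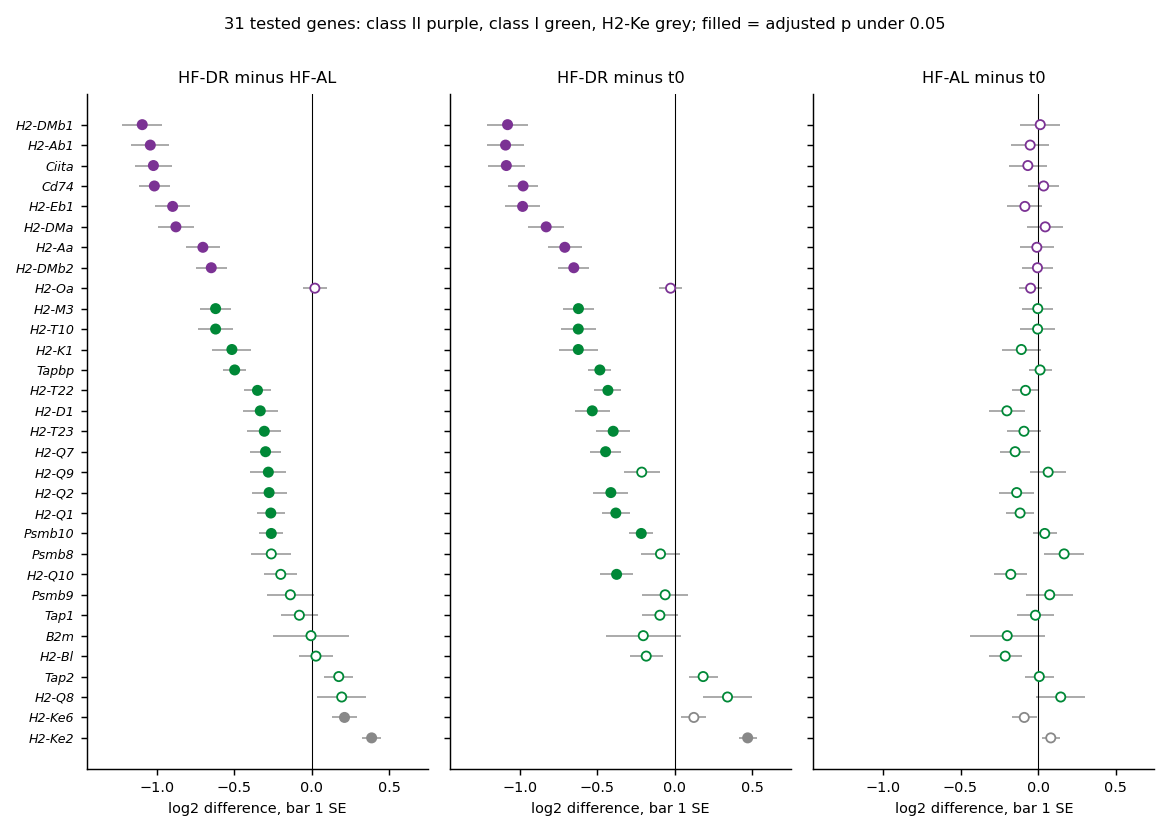
Log2 differences (point) with 1 SE (bar) of the 31 tested genes in the 3 comparisons, class II in purple, class I in green and the H2-Ke genes in grey, filled where the adjusted p was under 0.05. In both comparisons with HF-DR 8 class II points lie between -1.09 and -0.65, and between HF-AL and t0 no point is filled.

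Within the slides that held both groups, the class II mean was lower in HF-DR on each. Such a slide held 1 mouse of each group, so every value here is the difference of 1 mouse from another. HF-DR 1, 2 and 3 enter both comparisons with HF-DR. On the 3 slides with HF-DR and HF-AL the mean difference of the 9 class II genes was -0.98 to -0.23, and on the 6 slides with HF-DR and t0 it was -1.46 to -0.36. For single genes the lowest and highest of the 3 slides were -1.22 and -0.32 for Cd74, -1.39 and -0.33 for Ciita and -1.05 and -0.06 for H2-Aa. H2-Ab1 lacked a value on 1 slide and read -0.69 and -0.30 on the others. The mean of the 20 class I genes was -0.38 to 0.08 on the 3 slides, above 0 on 2 of them, and -1.10 to -0.03 on the 6. The -1.10 came from the slide of t0 4, the highest t0 mouse for H2-K1 (1.20), H2-D1 (0.84) and B2m (0.85). The array of t0 4 had the highest median Cy5 intensity (372), and no alternative left it out. H2-M3, H2-T10, H2-T22, Tapbp and B2m were below 0 on all 3 slides. On the 9 slides with HF-AL and t0 class II means ran from -0.37 to 0.68, on either side of 0.

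**Figure D5:**
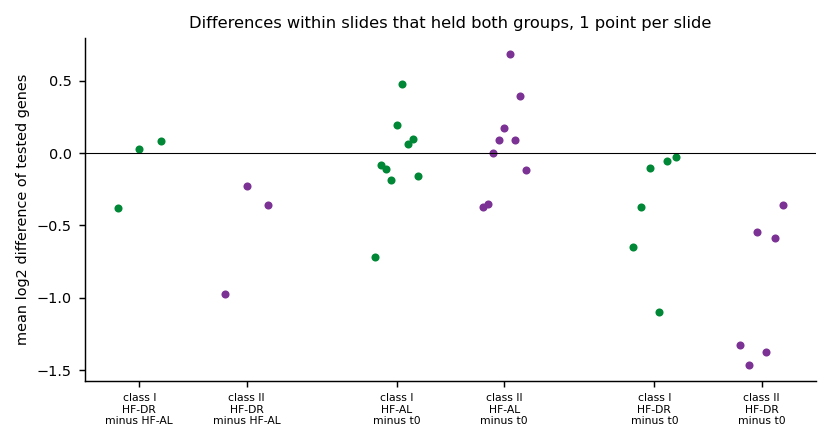
Mean log2 difference of the tested class I (green) and class II (purple) genes within each slide that held both groups of a comparison, 1 point per slide. Each point sets 1 mouse against 1 other mouse. All class II points of the comparisons with HF-DR are below 0, from -1.46 to -0.23, and 2 of the 3 class I points against HF-AL are above it.

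Mice of a group differed from one another, and 9 pairs of genes were followed across the 12 mice of each group apart, 27 relations in all, with two-sided permutation tests of 100000 resamples and adjustment over the 27. Pearson's r passed in 17 and Spearman's rho in 12, and both in 11. H2-Aa and H2-Ab1, the chains of 1 molecule, went together in each group, with r = 0.98 and rho = 0.97 in t0 (permutation p = 1e-05 and 1e-05, adjusted 0.000135 and 0.00027), where 1e-05 is the smallest p the resamples can give. They had r = 0.77 and rho = 0.74 in HF-AL (permutation p = 0.00556 and 0.0127, adjusted 0.0125 and 0.0381) over 11 mice, and r = 0.86 and rho = 0.86 in HF-DR (permutation p = 0.00055 and 0.00088, adjusted 0.00247 and 0.00475). Without the 2 mice farthest from the median of H2-Aa r was 0.97, 0.57 and 0.83, and without the tract arrays 0.98, 0.67 and 0.86. H2-Aa and Cd74 had r = 0.91 and rho = 0.91 in t0 (permutation p = 1e-05 and 1e-04, adjusted 0.000135 and 0.00135) and r = 0.64 and rho = 0.67 in HF-DR (permutation p = 0.0266 and 0.0207, adjusted 0.0422 and 0.0466), but in HF-AL neither adjusted p passed (r = 0.58 and rho = 0.39). H2-Aa and Ciita showed the same order by r over all mice but not by rho, which was highest in HF-DR. They had r = 0.89 and rho = 0.77 in t0, r = 0.80 and rho = 0.87 in HF-DR and r = 0.39 and rho = 0.39 in HF-AL. Only the first 2 passed, and r without the 2 farthest mice was 0.72, 0.89 and -0.07 in this order. The differences between groups in r were not tested.

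H2-Aa did not pass by r with the macrophage and dendritic integrin Itgax in any group (r = 0.52 in t0, 0.49 in HF-AL and 0.45 in HF-DR), and by rho passed in HF-AL only (0.67, adjusted permutation p = 0.0466). With the B cell gene Cd79b it passed nowhere (r = -0.05, -0.32 and 0.56 in t0, HF-AL and HF-DR). H2-K1 went with Psmb8, with r = 0.93 and rho = 0.85 in t0 (permutation p = 3e-05 and 0.00109, adjusted 0.00027 and 0.00491) and r = 0.88 and rho = 0.83 in HF-DR (permutation p = 0.00018 and 0.00153, adjusted 0.000972 and 0.0059). In HF-AL r was 0.75 over 11 mice and 0.31 without the 2 farthest, so there it rested on those mice. For H2-K1 and B2m in HF-DR r was -0.81 and rho -0.09, and without the 2 farthest mice, HF-DR 8 and 9, r was 0.59. In t0 that pair had r = 0.92, and 0.39 without the 2 farthest mice. H2-K1 and H2-Aa went together in HF-DR (r = 0.70 and rho = 0.85, and r = 0.87 without the 2 farthest) and not in HF-AL (r = 0.30 and rho = 0.06). In t0 their r of 0.83 fell to 0.35 without the 2 farthest mice.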

How the data were processed

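Per the labels' protocols, 500 ng of total RNA per mouse went into cDNA, which was split for Cy5 and Cy3 labelling, and the Cy3 channel of each array held a pool of the samples. The deposited scanner files hold, per the file headers, mean spot and median local background intensity per channel from Agilent Feature Extraction 9.5.3.1, with no normalization, and a processed intensity, tried in its place. In the authors' deposited series matrix are log2 values of 22510 probes with column medians of 9.26 to 9.29, which follow Cy5 (r at least 0.98). Their scaling and centring stay unknown. Probe coordinates are on mm8, per the file headers. Their exons were not annotated here.

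Background was corrected with normexp (offset 50) in limma 3.58.1 (R 4.3.3, the data.table package, 1.17.8), fitted without 84 specks (net signal below -50), and ratios were normalized within arrays by loess with 4 iterations. Outlier-marked spots were left out, spots of a probe averaged, and the probe with the highest mean intensity kept per name. The 36 arrays entered 1 limma fit with a mean per group, two-sided, with Benjamini-Hochberg adjustment over 16559 genes. The number of arrays limits the precision, and nothing says whether mice of a group shared a cage. One dye orientation was used, so dye effects cancel between groups but were not measured.

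The genes, lists, tests and most alternatives were chosen with earlier results of these data known. Named were the main chains and partners, the deepest falls and largest rises, and, per list, the 2 or 3 genes lowest in adjusted p. Further list genes, the genes with probes shown apart, and Erap1 under its older name were chosen after their values were seen. Replicate numbers were checked for pairing (the median correlation of same-numbered mice was 0.21 for HF-AL and HF-DR, with 9 of 12 pairs over 0.1, 0.01 for HF-AL and t0 and -0.07 for HF-DR and t0). Since not every pair was over 0.1, they were not taken to pair the samples. This rule cannot exclude a pairing of HF-AL with HF-DR mice, and the fit with replicate number as a block is given below. Single values of some list genes, and 1 of the 9 gene pairs, enter the counts but are not reported here. The fit was tested on simulated data.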

Additional observations from a re-analysis of the deposited data

How the results depend on the processing

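The count of class II genes was 8 of those tested in both comparisons with HF-DR under all 17 alternatives, and the counts between HF-AL and t0 were 0 under each. Class I counts moved. Between HF-DR and HF-AL 7 class I genes were called with scale normalization between arrays (1 higher, 6 lower), 4 of 18 with the series matrix and 4 with slide as a block, and 8 to 12 under the other alternatives (8 without t0 6 and HF-DR 7, 8 and 9, an alternative added after seeing the data). Against t0 the series matrix gave 5 of 18, and the other alternatives 12 to 14. With the series matrix H2-Q1 and H2-Q2 read 0.009 and 0.001 against HF-AL, and with the mean of all probes H2-Q10 read 1.49 against HF-AL and 1.27 against t0, since 2 of its 4 probes rose. The cause of the other shifts was not tested. With the replicate block the counts were 12 and 8, as without it, and none of the 93 single values changed its call. Slide as a random block, added after seeing the data, changed none either. Leaving out array HF-DR 5, which had the lowest share of probes well above background, gave 11 class I genes. Scan date as a block was not run, since all arrays were scanned on 1 day. Over all genes the calls between HF-AL and t0 numbered 107 (67.3% higher) and ranged from 70 to 511, with 44.4% (series matrix) to 85.4% (normexp fitted with specks) of them higher, and 44.7% by processed signals. Between HF-DR and HF-AL 44.5% of all calls were higher, 43.3% to 47.3% under the other alternatives and 52.8% with the series matrix, where the median difference was 0.02 in place of -0.04. Dim genes (H2-Ea, H2-Ob, H2-Eb2, the H2-M10 group) were too near background to be compared.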
